A study of Saccharomyces cerevisiae with 18 samples.

Results

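Chromatin accessibility was compared between the end of the Oxidative phase of the yeast metabolic cycle and the Reductive Building phase that follows it. The libraries were chosen by a rule on coverage: of the 5 libraries labelled Reductive Building, those of time points 12 and 14 were selected on having under 10% of nuclear peaks at 0 counts, and they were set against the later Oxidative time points 8, 9 and 10. These are 5 of the 18 libraries of the series. The share of nuclear peaks at 0 counts was 1.22% at time point 12, the selected library nearest to the limit, and 0% at 14, while time point 11 lay outside it at 11.2%. Time points 13 and 15 had 24.4% and 65.4%. This share chose the libraries and is given as a description only.

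The series followed Saccharomyces cerevisiae growing in a fermenter through 18 ordered time points, with 1 library each and no genotype or strain given in the labels used here. All libraries came from formaldehyde-fixed cells whose nuclei were opened to a transposase (ATAC-seq), which inserts sequencing adapters into accessible DNA. The labels name no agent that separates the groups, which differ in the position of the time point in the cycle. Collection took place in 2 batches whose members the labels do not name, so batch and phase cannot be told apart. Each library holds the bulk of the culture, so fewer cells in a state and less signal per cell cannot be told apart.

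In the yeast metabolic cycle, cells at high density under glucose limitation alternate in synchrony between bursts of oxygen consumption and phases of low respiration. In the usual description of its transcripts, genes for ribosomes, translation and sulfur metabolism peak in the Oxidative phase. Mitochondrial and cell division genes peak in Reductive Building, and genes of stress, storage carbohydrates, fatty acid oxidation and acetyl-CoA supply peak in Reductive Charging. Promoters of ribosomal protein genes are bound by dedicated activators that respond to nutrient signals, while many stress and carbon reserve promoters carry sites for stress factors.

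The 5 libraries held from 6372179 (time point 8) to 28728832 counts (time point 10). Nuclear peaks took 2882700, 4355434 and 12477489 counts at time points 8, 9 and 10, and 5507318 and 9304206 at 12 and 14. Mitochondrial peaks took 16.0%, 34.7% and 16.1% of all counts at time points 8, 9 and 10, and 38.3% and 21.0% at 12 and 14. The part of this mixed composition in the results was not tested. All values below are counts per 1000000 nuclear counts (CPM) or log2 ratios of them, on 2042 nuclear peaks outside the ribosomal DNA. Coding genes were assigned to a peak when their start was no more than 500 bp away, and where several genes were assigned the counts cannot tell them apart.

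Among the peaks higher at time points 12 and 14 than at the end of the Oxidative phase were those of the acetate and ammonium transporter genes ATO2 and ADY2, of CIT2 and ALD6 in acetyl-CoA and acetate metabolism, and of the stress gene HSP12, whose peak is shared with MDJ1. Among the lower ones were 9 peaks of ribosomal protein genes, those of ERG1, PSA1 and FKS1, and a peak inside TEF1, a translation elongation factor gene. By edgeR's quasi-likelihood test with Benjamini-Hochberg adjustment, 11 peaks were higher (0.539% of the 2042 tested) and 16 were lower (0.784%), at adjusted p from 0.0284 to 0.0481. A further measure needs no test: at 351 peaks (17.2%) both Reductive Building values lay above all 3 Oxidative values, and at 365 (17.9%) both lay below. These shares are the background against which the lists below are read. With 1 library per time point, time points of a phase were used as replicates, so the p-values measure only the spread between time points, and neighbouring time points are not independent.

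Every one of these calls needed all 3 Oxidative libraries. Without time point 8, 9 or 10 no peak passed by edgeR, with 189, 212 and 279 peaks at an unadjusted p under 0.05, against 282 with all 5 libraries. Without time point 12 the test called 36 peaks higher and 23 lower, and without time point 14 it called 11 and 77. When all 5 Reductive Building libraries were used, 0 peaks passed (47 at an unadjusted p under 0.05), and scaling to total counts also left 0 (153 unadjusted). DESeq2 called 57 higher and 79 lower and limma-voom 29 and 24.

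**Figure D1:**
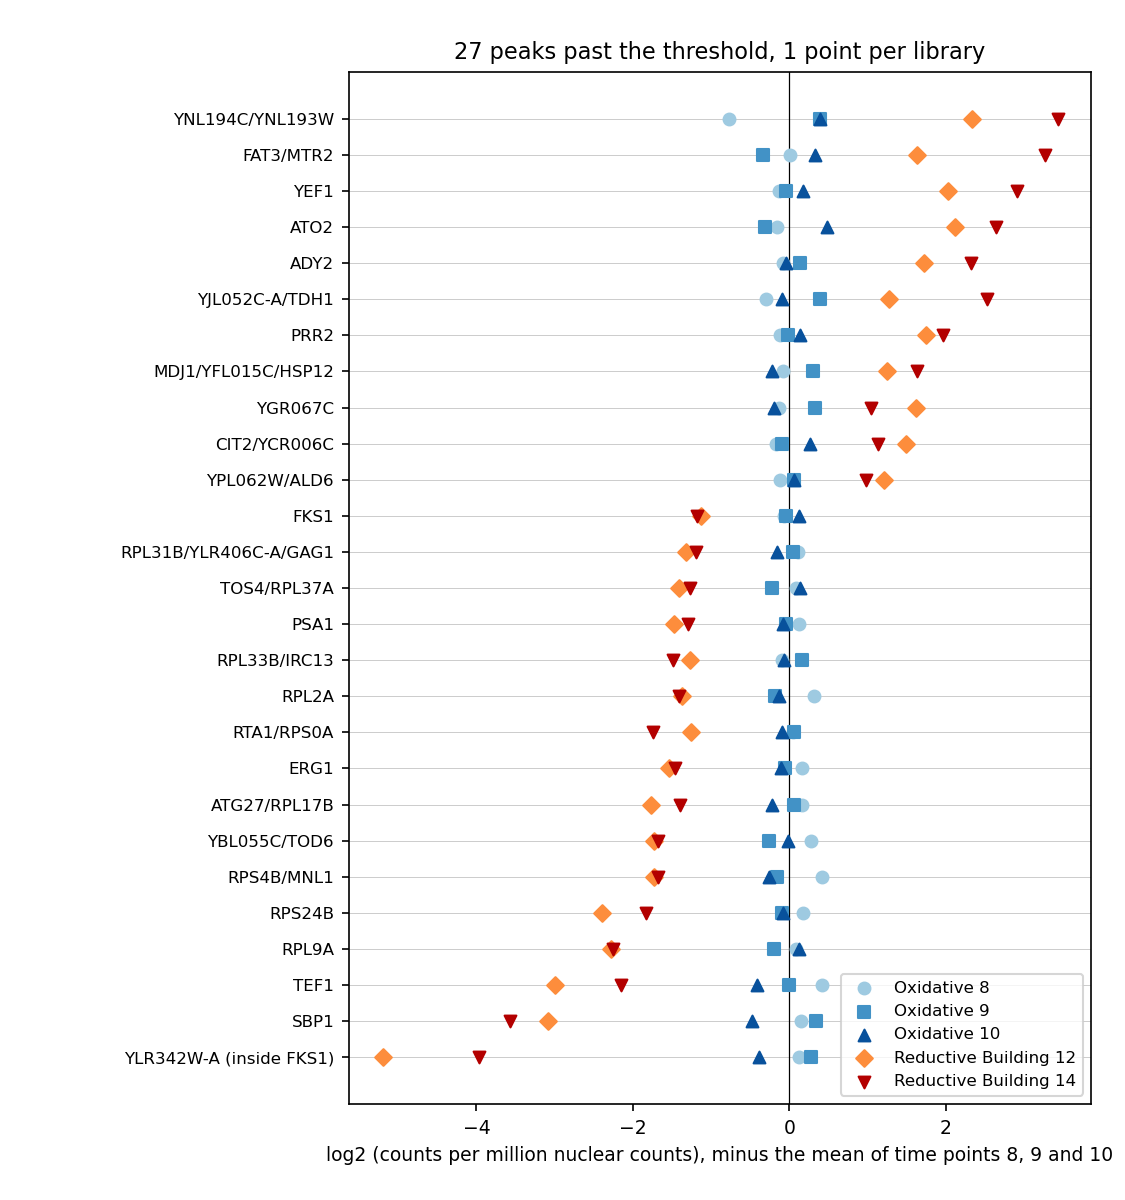
Each of the 27 peaks past the threshold, named by its linked genes, with 1 point per library on an axis of log2 CPM minus the mean of time points 8, 9 and 10. The blue Oxidative points lie near 0, and the orange and red points of time points 12 and 14 lie together on 1 side of them at every peak, from 2.33 and 3.42 for YNL194C/YNL193W to -5.10 and -3.93 for the peak inside FKS1.

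The peaks of the transporter genes ATO2 and ADY2 rose. ATO2, a plasma membrane transporter related to acetate and ammonium carriers, had a peak spanning its start (chromosome XIV, 633642 to 634746, build R64). Its level was 562, 503 and 873 CPM at time points 8, 9 and 10 and 2725 and 3920 CPM at 12 and 14. The groups did not overlap, and the log2 fold change was 2.36 ± 0.29 (SE; edgeR adjusted p = 0.0284), or 5.14-fold. ADY2, which imports acetate, had 147, 171 and 151 CPM in the Oxidative libraries and 514 and 780 CPM at 12 and 14 in a peak just upstream of its start (chromosome III, 133137 to 133875). The 3 Oxidative values lay close together and both later values were above them (2.05 ± 0.38, adjusted p = 0.0350). For the related gene ATO3, whose peak also spans the start of the elongation factor gene EFT2, the log2 fold change was -0.53 ± 0.28 (adjusted p = 0.421), and both later values were below the Oxidative ones.

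CIT2 and ALD6, enzymes of acetyl-CoA and acetate metabolism, were called as well. The broad peak over the start of CIT2, the peroxisomal citrate synthase of the glyoxylate cycle (chromosome III, 122319 to 124118), had 2810, 2986 and 3819 CPM and then 8928 and 6955 CPM. Time point 12 was the higher of the Reductive Building pair (1.31 ± 0.20, adjusted p = 0.0315). This peak also spans YCR006C and overlaps a transfer RNA gene. ALD6, the cytosolic aldehyde dehydrogenase that makes acetate, shares a peak with YPL062W (chromosome XVI, 431464 to 433112). Its 3 Oxidative values were 2577, 2937 and 2936 CPM, and 6502 and 5521 CPM followed at 12 and 14, a rise of 1.09 ± 0.18 (adjusted p = 0.0317). ALD4, the mitochondrial aldehyde dehydrogenase, had 386, 459 and 340 CPM against 769 and 3043 CPM. Its values did not overlap but it did not pass (2.27 ± 0.47, adjusted p = 0.0547), and time point 14 was far above 12.

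The list of genes for acetyl-CoA supply, gluconeogenesis and the glyoxylate cycle had 25 linked peaks, of which 4 rose (ATO2, ADY2, CIT2 and ALD6) and 0 fell. Its median log2 fold change was 0.84, against 0.02 for all nuclear peaks, and 23 of the 25 values were positive. In 10 peaks (40.0%, against 17.2% of all peaks) both later libraries were above all Oxidative ones, and in 1 they were below. Among those that did not pass, ACH1, which moves CoA between acetate and succinate and shares its peak with FUS3, had 1.07 ± 0.23 (adjusted p = 0.0576). JEN1, the lactate and pyruvate transporter, had 1.21 ± 0.28 (adjusted p = 0.0794). Of the enzymes specific to gluconeogenesis, PCK1 had 0.37 ± 0.38 and FBP1 0.09 ± 0.31 (adjusted p = 0.703 and 0.937). ICL1, the isocitrate lyase of the glyoxylate cycle, had 0.77 ± 0.48 (adjusted p = 0.519).

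FAT3, YEF1 and PRR2, which are in none of the lists, were also called. The peak over the start of FAT3, a fatty acid uptake gene, which lies beside the mRNA export gene MTR2 (chromosome XI, 91525 to 93046), had 273, 216 and 343 CPM and then 843 and 2626 CPM. Its log2 fold change was 2.64 ± 0.44 (adjusted p = 0.0342), with time point 14 well above 12. YEF1, an NAD and NADH kinase, had 64.2, 68.6 and 79.4 CPM, then 287 and 530 CPM, in a peak upstream of its start (chromosome V, 75035 to 75914). That difference was 2.53 ± 0.48 (adjusted p = 0.0397). The intergenic peak between YNL194C, which codes for a membrane protein, and YNL193W had the largest called value, 2.88 ± 0.51 (adjusted p = 0.0350), from 46.5, 104 and 104 CPM to 402 and 854 CPM. This peak and that of YGR067C (1.34 ± 0.24, adjusted p = 0.0350) carry no standard gene name and were picked after their values were seen. PRR2, a protein kinase gene, had 198, 212 and 235 CPM against 717 and 833 CPM (1.85 ± 0.33, adjusted p = 0.0350), and here the 2 later libraries were nearly equal.

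Of 8 peaks at fatty acid oxidation genes 0 passed, with a median log2 fold change of 0.88. The peak between CHC1 and POX1, the gene of peroxisomal acyl-CoA oxidase, had 79.1, 58.1 and 82.2 CPM and then 270 and 451 CPM. It did not pass (2.30 ± 0.49, adjusted p = 0.0548), although the groups were apart. The list's median was 0.47 at time point 12 and 1.77 at 14, each against the mean of the Oxidative libraries.

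Stress and carbohydrate reserve genes had positive medians with few calls. Of 35 stress peaks 1 rose, the peak shared by HSP12, a small membrane-protecting heat shock protein, with MDJ1, a mitochondrial co-chaperone (chromosome VI, 106116 to 107260). It had 590, 771 and 536 CPM in the Oxidative libraries and 1477 and 1930 CPM at 12 and 14 (1.43 ± 0.27, edgeR adjusted p = 0.0372). In 15 of the 35 (42.9%, against 17.2%) both later libraries lay above all Oxidative ones, and the median was 0.62. HSP26, another small heat shock gene, had 141, 6.43 and 45.9 CPM and then 389 and 1810 CPM. Both later values were above a widely scattered Oxidative group, and it did not pass (4.10 ± 1.02, adjusted p = 0.0957). CTT1, the cytosolic catalase, had 347 CPM at time point 12, inside the Oxidative range of 291 to 434 CPM, and 958 CPM at 14.

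Of 17 glycogen and trehalose peaks 0 passed. In 10 (58.8%, against 17.2% of all peaks) both later values were above all Oxidative values, and in 0 were they below. GLC3, the glycogen branching enzyme, came nearest to the threshold with 90.2, 67.0 and 134 CPM against 363 and 620 CPM (2.34 ± 0.48, adjusted p = 0.0527). TPS2, the trehalose-6-phosphate phosphatase, had 108, 211 and 253 CPM against 651 and 919 CPM (2.04 ± 0.43, adjusted p = 0.0547). PGM2, the major phosphoglucomutase, had 3.08 ± 0.76 (adjusted p = 0.0920). UGP1, which makes UDP-glucose and shares its peak with AIM26, had 146 CPM at time point 12, near the Oxidative 125, 95.5 and 111 CPM, and 882 CPM at 14. The list's median was 0.41 at 12 and 1.11 at 14.

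In central carbon metabolism 1 of 29 peaks of glycolysis and hexose transport rose, that of TDH1, a glyceraldehyde-3-phosphate dehydrogenase isozyme, shared with YJL052C-A (chromosome X, 337179 to 338268). It had 256, 415 and 297 CPM against 761 and 1816 CPM (2.00 ± 0.40, adjusted p = 0.0481). The near-identical copies TDH2 and TDH3 had 0.72 ± 0.36 and 1.00 ± 0.39, and how reads that map to several copies were handled is not given in the sources used here. HXK1, a hexokinase used on poor carbon sources, had 1.06 ± 0.25 (adjusted p = 0.0794), and its partner HXK2, the main one on glucose, had -0.36 ± 0.34. In the list of glycolysis and hexose transport 11 peaks (37.9%, against 17.2% of all peaks) lay wholly above. Another 3 (10.3%, against 17.9%) lay wholly below. Of 13 peaks of glycerol metabolism and NADH shuttles 0 passed and 7 (53.8%, against 17.2% of all peaks) lay wholly above. Among them GUT2, the mitochondrial glycerol-3-phosphate dehydrogenase, had 442, 391 and 565 CPM and then 986 and 1818 CPM (1.59 ± 0.33, adjusted p = 0.0527). CYB2, a lactate dehydrogenase, had 1.82 ± 0.44 (adjusted p = 0.0838).

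**Figure D2:**
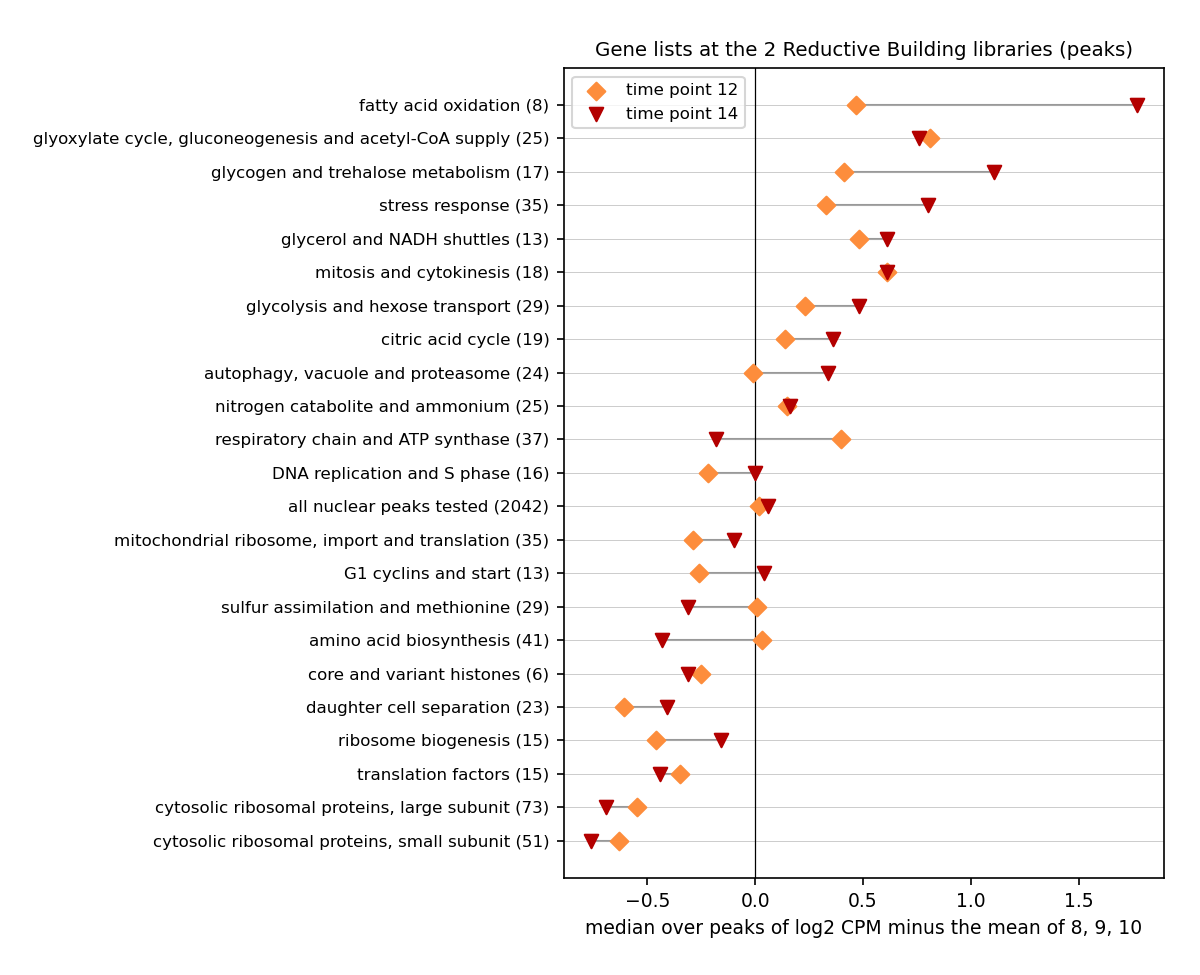
Median over the linked peaks of each gene list (number of peaks in brackets) of log2 CPM at time point 12 (orange) and 14 (red) minus the mean of time points 8, 9 and 10. Fatty acid oxidation lies farthest right at time point 14 (1.77) and small subunit ribosomal proteins farthest left (-0.76), while all nuclear peaks lie at 0.02 and 0.06.

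Ribosomal protein genes held 9 of the 16 peaks called lower. Of 51 peaks at genes of the small subunit 3 fell and 0 rose, and of 73 at genes of the large subunit 6 fell and 0 rose. In 38 small subunit peaks (74.5%) and 40 large subunit peaks (54.8%) both later libraries lay below all Oxidative ones, against 17.9% of all nuclear peaks. The medians were -0.73 and -0.64 on the log2 scale. Most of these genes have a paralog, and for near-identical copies the assignment of reads is uncertain.

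RPS24B carried the firmest call among them, in a peak over its start (chromosome IX, 232257 to 233025). It had 1652, 1363 and 1386 CPM at time points 8, 9 and 10, and 277 and 409 CPM at 12 and 14 (-2.09 ± 0.29, adjusted p = 0.0284). RPL9A fell most of the ribosomal protein genes called, from 492, 403 and 503 CPM to 95.9 and 97.3 CPM (-2.27 ± 0.41, adjusted p = 0.0350; chromosome VII, 228187 to 228786). In both peaks the later libraries were far below every Oxidative one, and for RPL9A they were almost equal. RPL2A had the highest level among the ribosomal protein peaks called, with 4131, 2930 and 3013 CPM, and fell to 1282 and 1249 CPM (-1.41 ± 0.23, adjusted p = 0.0317; chromosome VI, 221354 to 222043).

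The other 6 called peaks of ribosomal protein genes lie next to other genes. The peak of RPS4B and MNL1 (chromosome VIII, 505435 to 506299) had 1623, 1090 and 1008 CPM against 367 and 378 CPM. RPL17B shares its peak with ATG27, a gene of autophagy (chromosome X, 89991 to 90808), with 1193, 1107 and 910 CPM against 312 and 402 CPM. This is also the call that the list of autophagy, vacuole and proteasome genes had. For both peaks the groups were well apart, at -1.73 ± 0.31 (adjusted p = 0.0350) and -1.58 ± 0.30 (adjusted p = 0.0372). RPS0A with RTA1 had -1.48 ± 0.24, RPL33B with IRC13 -1.39 ± 0.24, RPL37A with TOS4 -1.35 ± 0.27 and RPL31B with YLR406C-A and GAG1 -1.27 ± 0.23 (adjusted p = 0.0317, 0.0342, 0.0481 and 0.0350). The last 2 of these were named after their values were seen.

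Not all ribosomal protein peaks had values below the Oxidative ones. In 4 of them both later values lay above all Oxidative ones, and 0 of the 4 passed. RPS13, whose peak lies beside AIM7, had 81.2, 70.3 and 61.2 CPM and then 403 and 116 CPM (1.87 ± 0.62, adjusted p = 0.211). RPL37B with PLM2 had 1.61 ± 0.90, RPL11B 1.06 ± 0.63 and RPS12 0.77 ± 0.46. These are peaks of low level, the 3 Oxidative values of RPL37B being 22.5, 29.6 and 60.6 CPM. RPS3, a gene of high level that shares its peak with RHO5, had 0.50 ± 0.27 (adjusted p = 0.448), with 1728 CPM at time point 12 inside the Oxidative range of 1444 to 1983 CPM and 2918 CPM at 14.

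**Figure D3:**
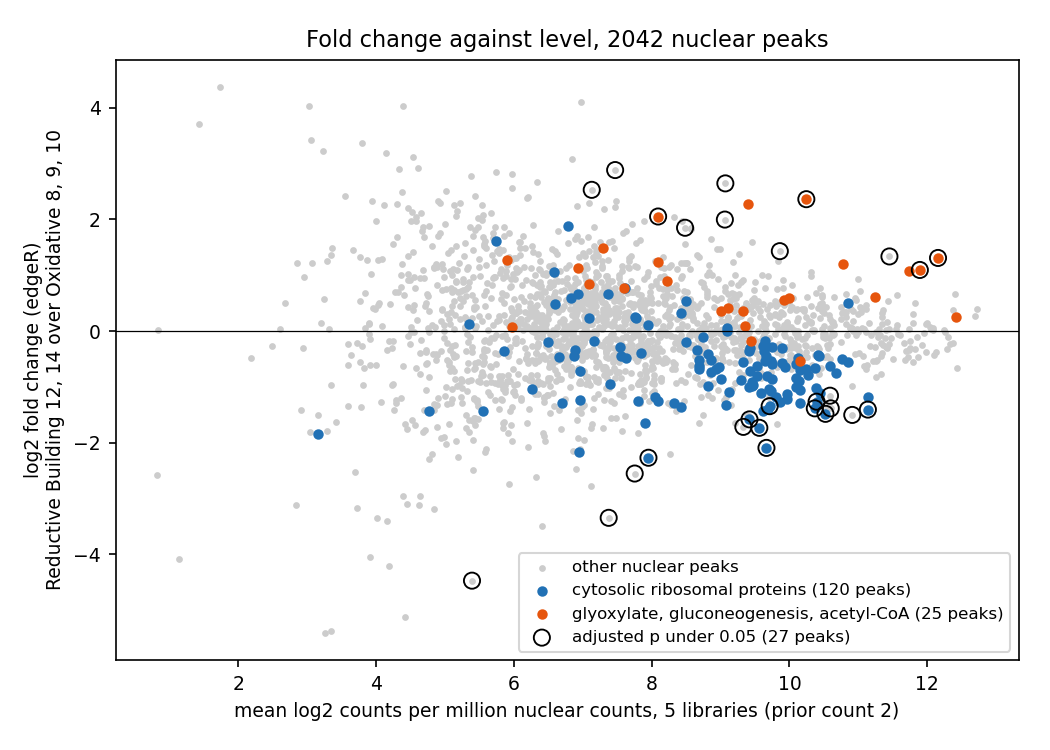
The log2 fold change of each nuclear peak (Reductive Building 12 and 14 over Oxidative 8, 9 and 10) against its mean log2 CPM over the 5 libraries, with ribosomal protein peaks in blue, the glyoxylate and acetyl-CoA list in orange and the 27 called peaks circled. The blue points lie mostly below 0 (medians of -0.73 and -0.64 for the 2 subunits) and the orange ones mostly above it (median 0.84), and peaks of low level scatter widest.

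Beyond the ribosome itself, other genes of translation had few calls. SBP1, an RNA-binding protein that represses translation, had 462, 525 and 298 CPM and then 49.2 and 35.0 CPM, in a peak that ends 354 bp upstream of its start (chromosome VIII, 34431 to 35084). It fell by 3.35 on the log2 scale (SE 0.51, adjusted p = 0.0315). The peak shared by YBL055C and TOD6, a repressor of ribosome biogenesis genes (chromosome II, 116664 to 117525), fell from 1254, 864 and 1015 CPM to 311 and 323 CPM (-1.72 ± 0.30, adjusted p = 0.0350). Of 15 peaks at ribosome biogenesis genes, linked to 15 of the 67 genes listed, 0 passed and the median was -0.52. Of these, 4 (26.7%, against 17.9% of all peaks) lay wholly below and 0 above. Of 15 at translation factor genes 0 passed, with a median of -0.59. For TEF1 the list used the peak over its start, which had the higher mean. The called peak inside TEF1 was therefore not counted. CAM1 with DIG1 had -1.15 ± 0.36 (adjusted p = 0.182), and EFB1, which shares its peak with the chaperone gene SSA1, had 0.88 ± 0.35 (adjusted p = 0.294).

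TEF1, which with TEF2 encodes elongation factor 1-alpha, had a lower peak inside the gene, beginning 315 bp downstream of the start (chromosome XVI, 700909 to 702109). It had 589, 440 and 329 CPM and then 55.2 and 98.8 CPM (-2.55 ± 0.50, adjusted p = 0.0422). At the peak over the start of TEF1 (699850 to 700598) the values were 359, 427 and 377 CPM against 664 and 225 CPM. Here 1 later library lay above and the other below the Oxidative range (0.20 ± 0.46, adjusted p = 0.897). TEF2 had the same arrangement, with -1.82 ± 0.48 (adjusted p = 0.116) in a peak inside the gene and 0.31 ± 0.32 in the peak over its start, which it shares with TKL2. The 2 genes are near-identical in their coding part, so the peaks inside them are not independent. The TEF2 and start peaks were named after their values were seen.

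The peaks of ERG1, PSA1 and FKS1, which are in none of the lists, fell. ERG1, the squalene epoxidase of ergosterol synthesis, had 3270, 2803 and 2719 CPM and then 1005 and 1062 CPM over its start (chromosome VII, 848225 to 849449). With the later libraries close to each other, it was among the firmest calls (-1.50 ± 0.21, adjusted p = 0.0284). PSA1, which makes GDP-mannose for the wall and for glycosylation, had 2485, 2208 and 2159 CPM against 819 and 928 CPM (-1.39 ± 0.22, adjusted p = 0.0317; chromosome IV, 356847 to 358557). FKS1, the catalytic subunit of glucan synthase, had 2014, 2057 and 2309 CPM against 968 and 937 CPM in the peak upstream of it (-1.16 ± 0.22, adjusted p = 0.0372; chromosome XII, 808613 to 809716). A small peak inside FKS1, linked to the start of YLR342W-A (chromosome XII, 814876 to 815342), had 159, 177 and 112 CPM and then 3.99 and 9.35 CPM, from 22 and 87 counts. This was the most negative of the called values (-4.47 ± 0.89, adjusted p = 0.0481). Both FKS1 peaks were named after their values were seen.

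Of 23 peaks at genes of daughter cell separation and the cell wall 0 passed, with a median of -0.39, and 8 (34.8%, against 17.9%) lay wholly below the Oxidative values. HSP150 with PIR5, of the wall protein family, came nearest, with 1160, 1030 and 905 CPM against 272 and 456 CPM (-1.50 ± 0.33, adjusted p = 0.0618). SCW4, a wall glucanase gene, had -1.32 ± 0.34 (adjusted p = 0.115) and DSE4, a daughter-specific glucanase gene, -1.92 ± 0.58 (adjusted p = 0.160).

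The lists that usually mark Reductive Building had no call in either direction among their linked peaks. Of the mitochondrial ribosome and import list 35 of 98 genes were linked to a peak. For DNA replication these were 16 of 53, for mitosis and cytokinesis 18 of 48 and for histones 10 of 11. Genes without a linked peak were not measured. Of 35 peaks at genes of the mitochondrial ribosome and protein import 0 passed and the median was -0.08. Of these, 3 lay wholly above (8.57%, against 17.2% of all peaks) and 7 wholly below (20.0%, against 17.9%). The 6 histone peaks had a median of -0.35, with 3 wholly below (50.0%, against 17.9%) and 0 wholly above. Among them the promoter between HTB1 and HTA1 had -0.32 ± 0.31 and that between HTA2 and HTB2, the 1 positive value of the 6, 0.24 ± 0.25 (adjusted p = 0.686 and 0.711). Of 16 DNA replication peaks 5 (31.2%) lay wholly below and 0 above, while the median was 0.07 and 9 of the 16 values were positive. The shared peak of RNR4, a ribonucleotide reductase subunit, and TIM13 had -0.76 ± 0.22 (adjusted p = 0.144). The 18 mitosis and cytokinesis peaks had a median of 0.34, with 4 wholly above (22.2%, against 17.2%) and 1 wholly below (5.56%, against 17.9%). There MYO1, the myosin of the contractile ring, had 1.00 ± 0.32 (adjusted p = 0.200) and CLB1, a mitotic cyclin, 1.22 ± 0.44 (adjusted p = 0.241), both with the later values above all Oxidative ones.

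Sulfur and amino acid genes gave no call either. Of 29 sulfur and methionine peaks 8 (27.6%) lay wholly below and 2 (6.9%) above, with a median of -0.27. Of 41 amino acid peaks 14 (34.1%) lay below and 6 (14.6%) above, with a median of -0.29. Over all nuclear peaks the shares were 17.9% below and 17.2% above. Taken apart, the sulfur list had a median of 0.01 at time point 12 and -0.31 at 14. The amino acid list had 0.03 at 12 and -0.43 at 14. MUP1, the methionine permease, had 2599, 1915 and 2146 CPM and then 1089 and 649 CPM (-1.35 ± 0.29, adjusted p = 0.0547). SHM2, which feeds 1-carbon units from serine and shares its peak with REX2, had 1064, 843 and 1032 CPM against 453 and 174 CPM (-1.64 ± 0.42, adjusted p = 0.108). BAT2, a branched-chain aminotransferase of catabolism, shared with HMS2, had 1.85 ± 0.43 in the other direction (adjusted p = 0.0764). Of the nitrogen genes MEP3, an ammonium permease, had -1.50 ± 0.36 (adjusted p = 0.0794).

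The 2 Reductive Building libraries differed from each other as much as from some Oxidative ones. Between time points 12 and 14, 710 peaks (34.8%) were over 2-fold apart, against 24.0% to 28.5% between pairs of the Oxidative libraries. Between an Oxidative library and time point 12 this share was 36.5% to 42.2%, and with time point 14 it was 30.1% to 37.3%. Taken against the Oxidative mean, 698 peaks were higher in both, 627 lower in both and 717 higher in 1 and lower in the other. Among the 11 peaks called higher the median difference was 1.63 at time point 12 and 2.32 at 14, and 8 of them were farther from the Oxidative mean at 14. The 16 called lower had medians of -1.63 and -1.58.

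In the list of the respiratory chain and ATP synthase the medians at time points 12 and 14 had opposite signs. Its 37 peaks had a median of 0.40 at 12 and -0.18 at 14, and 0 passed. ATP4 and SDH3, subunits of ATP synthase and of succinate dehydrogenase, had 513 and 448 CPM at time point 12, above all their Oxidative values, and 186 and 164 CPM at 14, inside the Oxidative ranges. Other members of the list kept 1 direction. COX6, with YHR050W-A, had 294, 172 and 480 CPM and then 127 and 93.5 CPM (edgeR, -1.52 ± 0.56, adjusted p = 0.243). NDE2, with YDL085C-A, had 1.59 ± 0.59 (adjusted p = 0.245), with both later values above all Oxidative ones. CIT1, the mitochondrial citrate synthase, is in the list of the citric acid cycle. It had 370, 294 and 670 CPM and then 1487 and 819 CPM (1.37 ± 0.41, adjusted p = 0.154). It was highest at 12 and above all Oxidative values in both libraries. Each difference between time points 12 and 14 rests on 1 library per time point and has no replicate check. ATP4 and SDH3 were named after their values were seen.

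**Figure D4:**
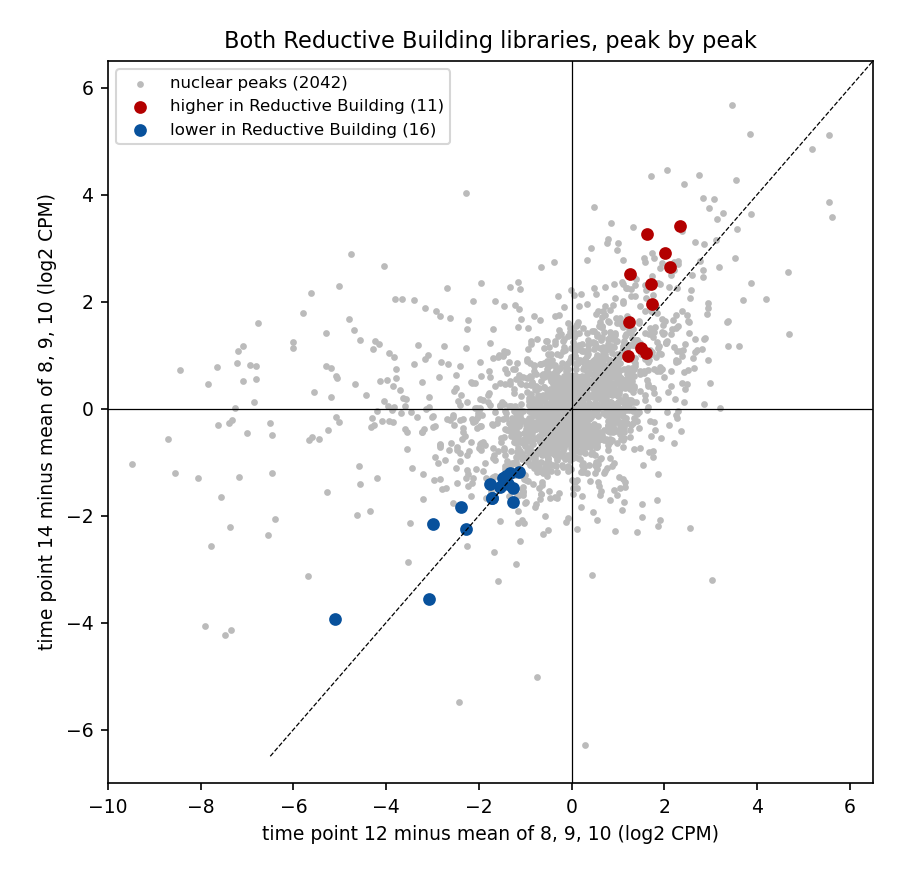
Each nuclear peak's log2 CPM at time point 14 (vertical) against time point 12 (horizontal), both minus the mean of time points 8, 9 and 10, with the 11 peaks called higher in red and the 16 called lower in blue. The called peaks lie on the same side of 0 in both libraries but not all near the dashed line of equality (1.63 and 3.27 for FAT3), while 717 of the 2042 peaks lie in the quadrants where the 2 libraries have opposite signs.

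Earlier Oxidative time points are set beside these values for the peaks called, with no comparison drawn, because they would be read against the same time points 8, 9 and 10. ATO2 had 1906 and 1507 CPM at time points 6 and 7, FAT3 1507 and 1205 CPM and PRR2 992 and 895 CPM. CIT2 had 3463 and 3927 CPM there and YGR067C 2214 and 1605 CPM. Among the peaks called lower, RPS24B had 897 and 988 CPM, RPL17B with ATG27 970 and 1033 CPM, ERG1 2106 and 2086 CPM and SBP1 132 and 148 CPM. With Oxidative time points 6 to 10 in place of 8 to 10, 4 peaks were called higher and 8 lower, of which 2 and 5 were among the 27.

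For the 3 Reductive Building libraries left out by the coverage rule, values are given for some of the called peaks, picked after their values were seen. At time points 11, 13 and 15 ATO2 had 437, 2472 and 2427 CPM, CIT2 3291, 10275 and 2956 CPM, and HSP12 with MDJ1 793, 2351 and 2858 CPM. Time point 11 was thus within or below the Oxidative range for ATO2 and CIT2 and just above it for HSP12. Among the other peaks called higher, those of YEF1, PRR2 and TDH1 were not above their Oxidative range at time point 13. YEF1 with 32.2 CPM and PRR2 with 125 CPM were below all their Oxidative values there. TDH1 with 276 CPM was inside its Oxidative range. RPS24B had 832, 1178 and 313 CPM, RPL9A 106, 69.7 and 19.6 CPM, and ERG1 3247, 2445 and 1400 CPM. Of these RPS24B and RPL9A were below all their Oxidative values in all 3 libraries. ERG1 at time point 11 was above 2 of its 3 Oxidative values. Counts at time point 15 were low (2 for RPL9A, 32 for RPS24B and 248 for ATO2), so its values are coarse.

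**Figure D5:**
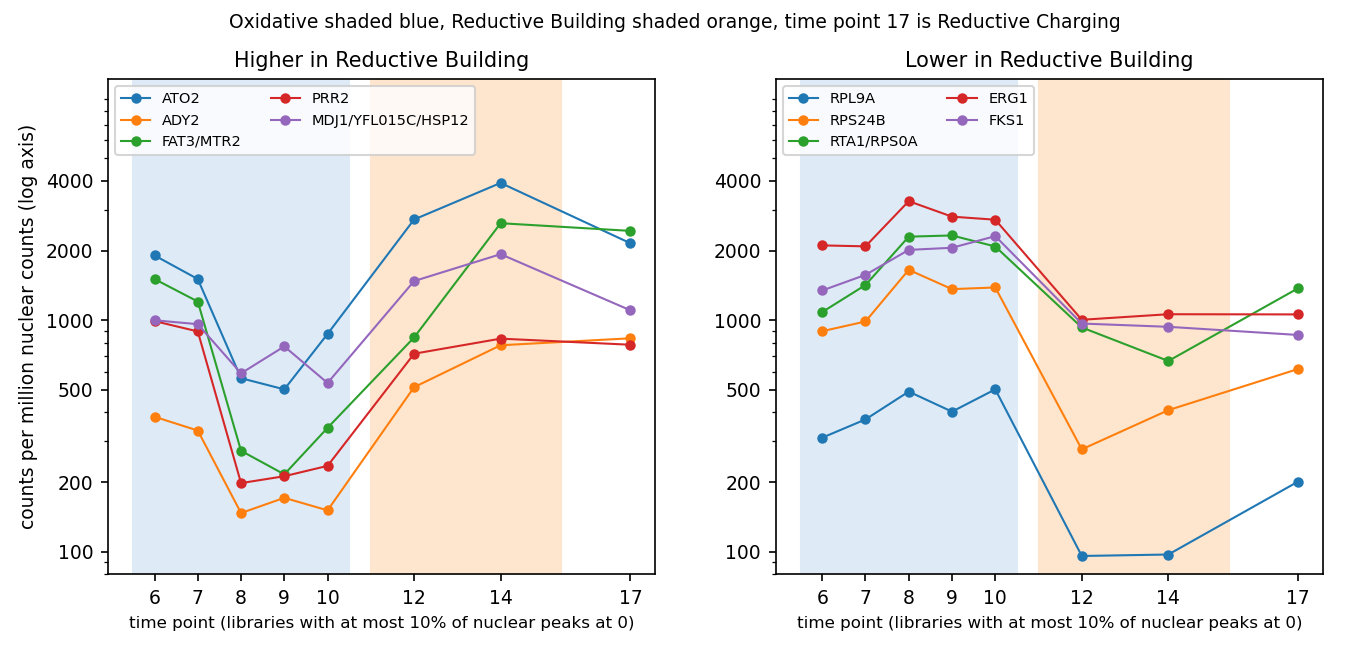
CPM (log axis) of 5 peaks called higher (left) and 5 called lower (right) at the time points from 6 to 17 whose libraries have at most 10% of nuclear peaks at 0, with Oxidative shaded blue and Reductive Building orange. The left peaks are lowest at time points 8 to 10 (ATO2 at 503 to 873 CPM) and the right ones are higher there than at 12 and 14 (RPS24B at 1363 to 1652 CPM against 277 and 409 CPM).

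By place in the genome the calls were few in every class, as they were over all 2042 nuclear peaks (0.539% higher and 0.784% lower). Of 1005 peaks that span a gene start 6 were higher and 11 lower, and of 276 linked to no gene start 0 were called. Among the 433 peaks with their centre inside a coding gene 3 were higher and 4 lower. The 204 peaks that overlap a transfer RNA gene held 1 call, that of CIT2. Within 20000 bp of a chromosome end 0 of 163 peaks passed. At such small shares, 0 calls in classes of 276 and 163 peaks says little about them. Of the peaks linked to no gene start, 18.5% lay wholly above and 13.4% wholly below, against 17.2% and 17.9% of all peaks. Near chromosome ends these shares were 10.4% and 14.7%.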

How the data were processed

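Counts per peak from ATAC-seq of 18 fermenter libraries were used as deposited, in 1 common list of 2086 peaks. Per the submitters' processing notes, the authors used Trimmomatic, Bowtie2 and MACS2 with build R64; for versions, insertion site shifts, duplicates and reads with several matches, the sources used here give no settings. No counting intervals are printed, and errors come from the spread between libraries. All 18 columns matched a sample and 0 were left out. Of the peaks 2042 were nuclear, 32 mitochondrial and 12 in the ribosomal DNA; only nuclear peaks were tested, with library size set to their summed counts (from 2882700 to 12477489).

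The 5 libraries were fitted with edgeR 4.0.16 in R 4.3.3 (robust quasi-likelihood fit and F test; filterByExpr removed 0 peaks), with Benjamini-Hochberg adjustment over all nuclear peaks and a threshold of 0.05. The fit was tested on simulated data, where the share of false calls was above the threshold and small changes were mostly missed, so calls near the threshold are uncertain and a peak that did not pass may have changed. Log2 CPM used a prior count of 2. Genes were placed with RefSeq's table of assembly R64 (coding genes, 500 bp). In a list, the peak with the highest mean stood for a gene with several. Libraries, lists and tests were chosen with earlier results of these data known. Genes were named by a rule: the 12 largest and the 12 most negative called changes with a standard gene name, places left over going by p to peaks whose groups do not overlap, and the 3 smallest p of each list. Some list genes that the rule gives are not described above. Among them are the peaks of CDC3 with NKP2 (4.37 ± 1.50) and of PDB1 with YBR221W-A (-3.40 ± 1.51), which did not pass. Genes named otherwise were picked after their values were seen; in the list paragraphs these are the members beyond those 3. Alternatives were other scalings, filters, library sets, linking distances, limma-voom (limma 3.58.1), DESeq2 1.42.0 and leaving out each library. Sequences were not analysed here. Plots were drawn with matplotlib 3.10.9.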

Additional observations from a re-analysis of the deposited data

How the results depend on the processing

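The main test called 11 peaks higher and 16 lower. In this order the counts were 99 and 100 with 13 libraries in the fit, 57 and 79 with DESeq2, 29 and 24 with limma-voom, and 27 and 28 with at least 10 counts in every library. They were 4 and 8 against Oxidative time points 6 to 10, 0 and 0 with all 5 Reductive Building libraries, and 0 and 0 when scaled to total counts (median log2 fold change over peaks -0.07, against 0.02). Leaving out each library in turn gave 0 to 36 higher and 0 to 77 lower; where 1 Reductive Building library was left, it was assumed to vary like the Oxidative ones. TMM scaling (9 and 16), DESeq2 size factors (10 and 15), no filter (11 and 16), and a fit that was not robust (16 and 18) stayed within 1.5 times. Of the 11 and 16 calls, 11 and 16 were shared with DESeq2 and with the stricter filter, 11 and 15 with the 13 libraries, 11 and 14 with limma-voom, 8 and 16 with TMM scaling, 8 and 15 with DESeq2 size factors, and 2 and 5 with Oxidative 6 to 10. Leaving out time point 12 kept 10 and 12 of them and leaving out 14 kept 5 and 16, while leaving out 8, 9 or 10 kept 0. List peaks called were 6 higher and 9 lower, and 6 and 9 with genes within 250 bp, 6 and 10 within 1000 bp, and 5 and 9 with TMM scaling. Among the named peaks the sign turned only for TGL3/PRE5 with all 5 Reductive Building libraries (-0.02 against 1.25); the cause was not tested. No paired analysis was possible because the labels give 1 library per time point and no numbers shared between phases. At time point 12, 25 of the 2042 nuclear peaks had 0 counts, which limits what weak peaks can show.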

Other observations

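Peaks near genes of start and of early cell division, not described above, had no call. Of 13 peaks at genes of the G1 cyclins and start 3 lay wholly above the Oxidative values and 2 wholly below, with a median log2 fold change of -0.27. Over all nuclear peaks 17.2% lay wholly above and 17.9% wholly below, so counts this small out of 13 do not set the list apart. CLN1, a G1 cyclin, had 1617, 1525 and 1829 CPM against 1836 and 2366 CPM (edgeR, 0.34 ± 0.22, adjusted p = 0.527). SWI4 had 24.6, 2.07 and 53.9 CPM against 127 and 131 CPM (2.26 ± 1.16, adjusted p = 0.419). HCM1, a forkhead factor of S phase that shares its peak with BUD31, had 1228, 1039 and 1538 CPM against 726 and 856 CPM (-0.68 ± 0.27, adjusted p = 0.289). CLB5, the S phase cyclin, had 878, 968 and 593 CPM and then 155 and 538 CPM, so that time point 12 was the lowest (-1.23 ± 0.51, adjusted p = 0.314).

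Other nitrogen and protein turnover genes had values in both directions. UGA1, which degrades gamma-aminobutyrate, had 131, 37.7 and 51.5 CPM and then 211 and 481 CPM (edgeR, 2.24 ± 0.66, adjusted p = 0.146). The shared peak of FRS2 and GAT1, an activator of nitrogen genes, had 5620, 5953 and 4882 CPM against 4349 and 4378 CPM, a small shift with no overlap (-0.33 ± 0.17, adjusted p = 0.420). Of 24 peaks at autophagy, vacuole and proteasome genes 4 lay wholly above and 4 wholly below, with a median of 0.13. Each is 16.7%, near the 17.2% and 17.9% of all nuclear peaks.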
